A study of Mus musculus with 2 samples.

Results

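Cultured mouse neural stem cells were sorted singly by autofluorescence, their own light when no dye is added, and the cells described here came from the 2 middle sort gates, Mid-high and Low-mid. They were chosen by the gate recorded for each cell, and the highest and lowest gates stayed out of the comparison. The middle gates held 322 of the 640 cells in the study, 156 Mid-high cells and 166 Low-mid cells. The question was whether the step from the Low-mid to the Mid-high gate came with a difference in RNA that all 4 cultures shared.

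The donors were male C57BL6/J mice, 6 weeks of age, and the cells were hippocampal. In every culture the medium held B27, heparin and FGF2. Activated cells had 20 ng/mL each of FGF2 and EGF. Quiescent cells had EGF withdrawn and 50 ng/mL of BMP4 added, and counted as quiescent from 3 days on. For the exit cultures, sampled at 24 h and 48 h, quiescent cells went back into the medium of activated cells, to which 0.5 ug/mL noggin was added, a protein that blocks BMP4. The numbers of cells in the Mid-high and Low-mid gates were 43 and 41 in the activated culture, 42 and 45 in the quiescent culture, 38 and 44 in the 24 h exit culture, and 33 and 36 in the 48 h exit culture. Each state was 1 culture, and the labels do not say how many mice it came from. Every p-value thus refers to these 4 cultures of different states and not to replicates of 1 state. In the tests of genes, the spread of a gene was estimated mostly from the spread of other genes.

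Adult neural stem cells of the hippocampus can rest in a reversible quiescent state or divide and give rise to neurons. Culture with BMP4 is a standard model of the quiescent state, and EGF with FGF2 drives division. Autofluorescence of living cells has several known sources, among them NAD(P)H, flavins and material held in lysosomes, and its punctate part is often associated with lysosomes. The study's title names it as a marker of activation state.

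Before any RNA value, 3 features of the sort bear on the comparison. The gates lay in different plate rows: Mid-high cells were in rows D to F or L to N and Low-mid cells in rows B to D or J to L. Mid-high cells were also sorted later, with recorded times of 208 to 296 in the activated culture against 119 to 203 for its Low-mid cells, and of 204 to 291 against 115 to 202 at 24 h (unit not stated in the table). The times overlapped in the quiescent culture, at 171 to 304 in Mid-high and 81.7 to 214 in Low-mid cells, and at 48 h, at 179 to 308 and 87.5 to 222. Plate row and sort time ran with the gate, and their part in the results was not tested. Quiescent cells and those at 24 h of exit were on 1 plate, activated cells and those at 48 h on the other, and each plate has 384 wells. The 2 plates use the same well barcodes, and 136 of them held a middle-gate cell on both plates.

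Cells were profiled by SORT-seq, which reads polyadenylated RNA from its 3′ end and counts molecules by identifiers. Counts of the cells of 1 culture and 1 gate were summed, which gave 4 Mid-high and 4 Low-mid sums. In the activated, quiescent, 24 h exit and 48 h exit cultures the Mid-high sums held 1785791, 1174661, 796876 and 900209 counts, against 1283341, 1075599, 869358 and 885707 in the Low-mid sums. Markers set for the labelled cell type were present: all 10 neural stem cell markers had counts, and their summed level was 4643 to 7242 CPM in Mid-high sums and 4382 to 7390 CPM in Low-mid sums, where CPM is the count divided by the total of its sum and scaled to 1000000. Of 6 microglial markers 4 were at 0, namely Csf1r, Aif1, Tmem119 and C1qa, and the sum of the list reached at most 2.55 CPM in Mid-high sums and 3.39 CPM in Low-mid sums. The endothelial and mural markers Cdh5, Cldn5, Pdgfrb and Rgs5 were also at 0, with a summed level of at most 1.11 CPM in Mid-high sums and 0.930 CPM in Low-mid sums. The 6 neuronal markers summed to 255 to 418 CPM in Mid-high sums and 301 to 493 CPM in Low-mid sums, and were higher in Mid-high in 0 of 4 cultures. Oligodendrocyte lineage markers, with Sox10 and Mog at 0, summed to 493 to 1671 CPM in Mid-high and 562 to 1665 CPM in Low-mid sums. The 7 astrocyte markers summed to 941 to 5605 CPM in Mid-high and 892 to 4742 CPM in Low-mid sums. Ependymal markers reached at most 18.5 CPM in Mid-high and 16.4 CPM in Low-mid sums.

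The gates were close neighbours in brightness. In the activated culture Mid-high cells had a median autofluorescence of 4644 arbitrary units against 3267 in Low-mid cells, and in the quiescent culture 6215 against 4639. Mid-high cells had 6727 units against 5012 in Low-mid cells at 24 h of exit, and 6687 against 4586 at 48 h. The mean ratio of medians was 1.39-fold, against 2.93-fold between the highest and lowest gates, so the middle step was 0.306 of the end step on the log2 scale. The recorded ranges touched in each culture: the dimmest Mid-high cell of the 24 h exit culture had 5472 units and the brightest Low-mid cell 5602. These values set the gates and were not tested.

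**Figure D1:**
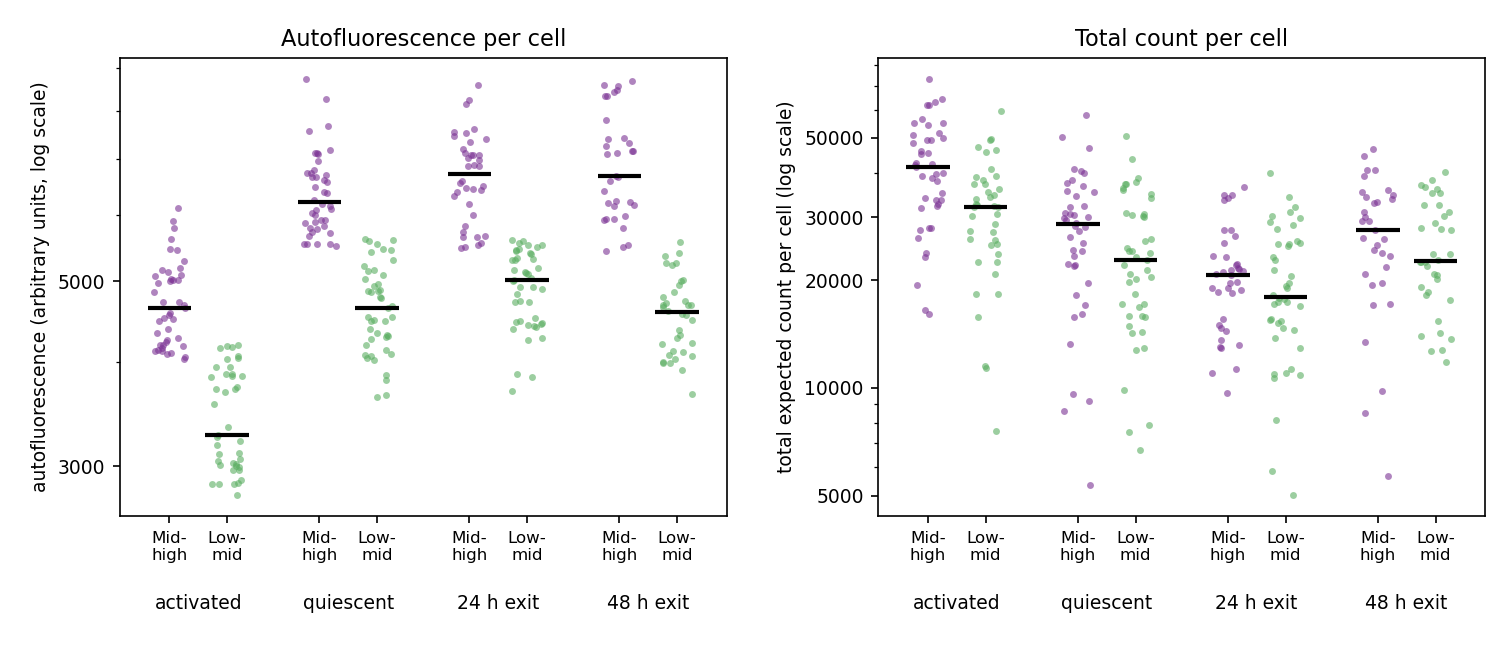
Autofluorescence (left, arbitrary units, log scale) and total expected count (right, log scale) of each middle-gate cell, by culture, with Mid-high left of Low-mid. Each point is 1 cell and each bar the median over cells; the medians of both measures were higher in Mid-high in 4 of 4 cultures, and total counts of single cells overlapped widely.

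Mid-high cells had higher medians of size, granularity and RNA in 4 of 4 cultures. Forward scatter, a measure of size, had medians of 67701, 91739, 62902 and 75645 units in Mid-high cells of the activated, quiescent, 24 h and 48 h cultures, against 55676, 66544, 56308 and 63690.1 units in Low-mid cells. The mean ratio was 1.22-fold. Side scatter, a measure of granularity, was 1.35-fold higher on average and ranged from 1.26-fold in the activated culture to 1.42-fold in the quiescent culture. The total expected count per cell had medians of 41338, 28659, 20714 and 27584 in Mid-high cells, against 32025, 22773, 17999 and 22664 in Low-mid cells in the same order of cultures. Its mean ratio was 1.23-fold, while the count of added spike-in RNA was 1.00-fold and higher in Mid-high in 2 of 4 cultures, so the total per spike-in count was also 1.23-fold higher. Genes seen per cell were 1.07-fold higher. The 5 ratios other than that of the spike-in count were above 1 in 4 of 4 cultures, and for each the exact sign-flip permutation test gave a two-sided p of 0.125, the smallest that 4 pairs allow (0.163 after Benjamini-Hochberg adjustment over 17 properties). The design therefore could not reach 0.05 for any property.

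Brightness in the other detector channels went with the gate as well. The longer-wave violet channel was 1.36-fold higher in Mid-high cells, the shorter-wave violet channel 1.32-fold, the shorter-wave blue channel 1.33-fold and the red channel 1.41-fold, each in 4 of 4 cultures with the same exact p of 0.125. Within single gates, the rank correlation of autofluorescence with the longer-wave violet channel was 0.68 to 0.88 over the 8 culture and gate groups of 33 to 45 cells. With the total count it was -0.02 to 0.42, with forward scatter -0.26 to 0.57, with side scatter -0.05 to 0.59 and with the authors' G2M score -0.31 to 0.08. These coefficients describe cells that share a culture and a plate. The 2 highest coefficients of autofluorescence with total count were 0.42 in activated Low-mid cells and 0.28 in Mid-high cells at 48 h of exit. A gate spans a narrow range of autofluorescence, which lowers such coefficients. They therefore do not give the strength of the link over all cells.

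Across genes, no difference between the middle gates was called. The quasi-likelihood test of edgeR, with culture as a block, called 0 of 8194 genes tested above (0.0%) and 0 below (0.0%) at an adjusted p under 0.05. At an unadjusted p under 0.05 there were 505 genes (6.16%), of which 338 were higher in Mid-high (4.12%) and 167 lower (2.04%). DESeq2 also called 0, with 105 genes at an unadjusted p under 0.05, whereas limma with voom weights called 9 and had 540 at an unadjusted p under 0.05. Leaving out 1 culture gave 1 call without the activated culture, 8 without the quiescent culture and 0 without either exit culture. Fitted on the quiescent and 24 h exit plate alone the test called 3 genes, and on the activated and 48 h exit plate alone 10. Mid-high was above Low-mid in all 4 cultures for 648 genes (7.91%) and below in all 4 for 498 (6.08%). The 4 Mid-high sums lay above all 4 Low-mid sums for 25 genes (0.305%) and below all of them for 22 (0.268%). None of the 19 genes described next was among these, as the values of the gates overlapped over the cultures for each of the 19.

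Among the 10 genes higher in Mid-high with the smallest p, 3 belong to mitosis. Top2a encodes the topoisomerase that untangles chromosomes before division, Prc1 organises the spindle midzone, and Cdk1 is the kinase that drives entry into mitosis. Ube2c, a ubiquitin-conjugating enzyme of the anaphase-promoting complex, is described with them as 1 of the abundant G2/M genes. In cycling cells such genes are switched on together in G2 and M, and many of their promoters carry CCAAT boxes and a cell cycle homology region (CHR). Their promoters from RefSeq on GRCm38.p6, running from 250 bases before to 50 bases after the start, are shown because these genes lead the comparison. CCAAT, on either strand, and the CHR letters TTTGAA, on either strand, are in capitals. Top2a lies at chr11:99024140-99024439 on the minus strand, Prc1 at chr7:80294201-80294500 on the plus strand (the first of its 2 entries), Cdk1 at chr10:69352863-69353162 on the minus strand and Ube2c at chr2:164769679-164769978 on the plus strand.
Top2a promoter: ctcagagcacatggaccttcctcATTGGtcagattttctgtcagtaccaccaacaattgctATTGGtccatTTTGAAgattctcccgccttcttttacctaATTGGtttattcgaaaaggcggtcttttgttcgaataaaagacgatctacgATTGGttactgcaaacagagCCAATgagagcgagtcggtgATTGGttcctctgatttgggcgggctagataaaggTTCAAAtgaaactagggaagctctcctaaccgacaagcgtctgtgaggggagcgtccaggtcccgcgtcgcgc
Prc1 promoter: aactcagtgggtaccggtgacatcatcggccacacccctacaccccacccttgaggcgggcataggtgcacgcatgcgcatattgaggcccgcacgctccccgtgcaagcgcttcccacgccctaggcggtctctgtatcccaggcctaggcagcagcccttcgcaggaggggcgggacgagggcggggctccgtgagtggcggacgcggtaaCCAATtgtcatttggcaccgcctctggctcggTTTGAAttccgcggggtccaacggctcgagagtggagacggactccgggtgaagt
Cdk1 promoter: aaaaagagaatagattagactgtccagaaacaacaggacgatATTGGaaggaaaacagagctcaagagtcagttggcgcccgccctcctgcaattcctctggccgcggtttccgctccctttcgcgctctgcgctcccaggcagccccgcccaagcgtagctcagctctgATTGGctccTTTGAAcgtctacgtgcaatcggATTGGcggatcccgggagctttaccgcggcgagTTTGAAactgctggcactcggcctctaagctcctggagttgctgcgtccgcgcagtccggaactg
Ube2c promoter: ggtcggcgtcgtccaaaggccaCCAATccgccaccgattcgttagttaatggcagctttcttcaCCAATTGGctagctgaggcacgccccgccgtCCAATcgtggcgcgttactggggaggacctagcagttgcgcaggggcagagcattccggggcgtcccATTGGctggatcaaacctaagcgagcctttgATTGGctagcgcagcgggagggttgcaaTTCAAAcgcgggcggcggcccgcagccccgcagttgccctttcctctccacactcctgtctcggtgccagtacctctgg

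All 4 windows held both motifs, and in Ube2c a CCAAT and its reverse complement overlapped. TTTGAA was present in 17.9% and CCAAT in 37.4% of the 32851 promoters of the table, and both in 6.95%. Of the 54 G2/M genes tested, 47 had a promoter in the table, 35 of these held TTTGAA, 35 held CCAAT and 28 held both (59.6%). A match of letters is a description and no binding was measured.

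Top2a had 522, 140.4, 62.8 and 699.8 CPM in the Mid-high sums of the activated, quiescent, 24 h and 48 h cultures, against 357, 70.5, 25.3 and 534 CPM in the Low-mid sums (CPM of named genes are scaled by TMM). It was higher in Mid-high in 4 of 4 cultures, with a fitted log2 difference of 0.63 ± 0.11 (SE) and an adjusted p of 0.0535 by edgeR, just outside the threshold. Prc1 had 309.7, 83.7, 39.6 and 337 CPM in Mid-high sums against 212, 30.2, 6.91 and 231 CPM in Low-mid sums, a log2 difference of 0.78 ± 0.15 (edgeR, adjusted p = 0.0564). Both genes were most abundant in the activated and 48 h cultures, whereas their ratios between gates were widest in the quiescent and 24 h cultures, at log2 0.98 and 1.28 for Top2a and 1.44 and 2.36 for Prc1. Cdk1 had 395, 74.7, 46.4 and 364 CPM in Mid-high sums, against 299, 36.6, 10.4 and 274 CPM in Low-mid sums, a log2 difference of 0.60 ± 0.14 (edgeR, adjusted p = 0.154). Ube2c had 452, 89.1, 57.3 and 365 CPM in Mid-high sums, against 275, 21.1, 25.3 and 358 CPM in Low-mid sums (log2 0.67 ± 0.16; edgeR, adjusted p = 0.198). Cbx5, also among the abundant G2/M genes, had a log2 difference of 0.06 ± 0.10 (edgeR, adjusted p = 0.988) and was lower in Mid-high at 24 h (log2 -0.21). Mki67, the proliferation marker Ki-67, did not keep 1 direction, with 352, 48.6, 46.4 and 393 CPM in Mid-high sums against 278, 34.8, 10.4 and 453 CPM in Low-mid sums (log2 0.25 ± 0.15; edgeR, adjusted p = 0.895).

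Of the 54 G2/M genes, all of which were tested, 0 were called, 49 had a fitted difference above 0 and 5 below, and 21 were higher in Mid-high in all 4 cultures, against 7.91% of all genes tested. The median log2 difference was 0.31, beside 0.01 over all genes. By culture the median was 0.29 in the activated, 1.00 in the quiescent, 1.06 in the 24 h exit and 0.06 in the 48 h exit culture. Within plates it was 0.98 on the quiescent and 24 h exit plate and 0.18 on the activated and 48 h exit plate. Without the 48 h exit culture the G2/M median was 0.52. The 45 G1/S genes had a median of -0.04, with 20 above and 25 below 0.

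In the quiescent and 24 h exit cultures a few cells gave much of the G2/M counts of the Mid-high sums, and less of those of the Low-mid sums. The authors' phase calls placed 2 of 42 Mid-high and 1 of 45 Low-mid quiescent cells in G2M, and 1 of 38 Mid-high and 0 of 44 Low-mid cells at 24 h (the exact 95% interval for 0 of 44 ends at 8.04%). Those 2 cells gave 85.3% of the Top2a counts of the quiescent Mid-high sum, and the 1 cell of the Low-mid sum gave 59.9%. At 24 h the single G2M cell held 80.5% of the Top2a counts of the Mid-high sum. Of the counts of the whole G2/M list, the 3 highest cells gave 64.6% in the quiescent Mid-high and 41.4% in the quiescent Low-mid sum, and 53.3% in the Mid-high and 26.5% in the Low-mid sum at 24 h. In the activated culture the 3 highest cells gave 18.6% of the Top2a counts of the Mid-high sum and 32.9% of those of the Low-mid sum. The wide Top2a ratios of the quiescent and 24 h cultures thus rest largely on 3 Mid-high cells and 1 Low-mid cell. Per cell, the summed G2/M genes had a median of 6102 CPM in Mid-high and 5624 CPM in Low-mid cells of the activated culture, 805 and 914 CPM in the quiescent culture, 628 and 660 CPM at 24 h, and 4211 and 4456 CPM at 48 h. The typical cell was therefore lower in Mid-high than in Low-mid in 3 of 4 cultures, although the sums were higher.

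The share of cells in S or G2M was lower in Mid-high in 4 of 4 cultures, whereas the share in G2M alone was higher in 3 and lower at 48 h. Cells in S or G2M were 35 of 43 Mid-high and 35 of 41 Low-mid cells in the activated culture, 3 of 42 and 4 of 45 in the quiescent culture, 1 of 38 and 3 of 44 at 24 h, and 23 of 33 and 27 of 36 at 48 h. These were 81.4 and 85.4%, 7.14 and 8.89%, 2.63 and 6.82%, and 69.7 and 75% of the cells, and in each culture the exact 95% intervals of the 2 gates overlapped. In the activated culture G2M cells were 41.9% of Mid-high cells (exact 95% interval 27.01 to 57.9%) and 31.7% of Low-mid cells (18.1 to 48.1%), whereas at 48 h they were 36.4% of Mid-high cells (20.4 to 54.9%) and 44.4% of Low-mid cells (27.9 to 61.9%). With S and G2M cells left out, the median log2 difference of the G2/M genes tested was -0.02. That fit tested 6118 genes and held 8 Mid-high and 6 Low-mid cells of the activated culture. In the activated and 48 h cultures the cells left out had given 94.3 to 96.6% of the G2/M list counts of a sum. A median near 0 was thus partly set by this choice of cells. After thinning to 12702 counts a cell, Top2a was seen in 11 of 37 Mid-high and 10 of 40 Low-mid quiescent cells and in 4 of 33 Mid-high and 9 of 35 Low-mid cells at 24 h. Before thinning it was seen in 15 of 42 Mid-high and 15 of 45 Low-mid quiescent cells and in 4 of 38 Mid-high and 13 of 44 Low-mid cells at 24 h.

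**Figure D2:**
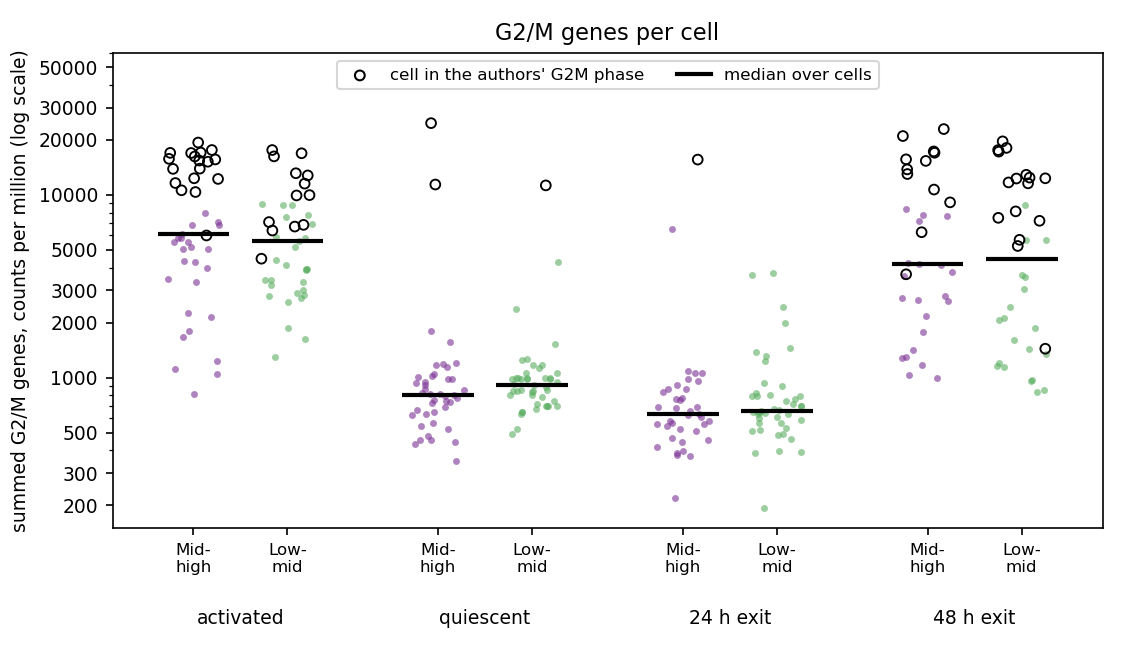
Summed level of the 54 G2/M genes in each cell, in CPM (log scale), by culture, with Mid-high left of Low-mid. Open circles are cells in the authors' G2M phase, filled points the other cells and bars medians over cells; 2 Mid-high and 1 Low-mid quiescent cells and 1 Mid-high cell at 24 h are in that phase.

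The other 7 genes of this set have roles outside mitosis. Malat1, an abundant RNA retained in the nucleus, had 2043, 8336, 12319 and 2823 CPM in Mid-high sums, against 1557, 8131, 7512 and 1645 CPM in Low-mid sums (log2 0.48 ± 0.10; edgeR, adjusted p = 0.121). Its ratio was close to 0 on the log2 scale in the quiescent culture, at 0.04, and 0.39 to 0.78 in the other 3. Rgs7bp, which anchors a regulator of G protein signalling to the membrane, had 33.3, 185, 188 and 110.3 CPM in Mid-high sums, against 22.8, 125, 132 and 54.5 CPM in Low-mid sums (log2 0.64 ± 0.13; edgeR, adjusted p = 0.0871). Gstm1, a glutathione transferase, had 336, 1382, 2145 and 879 CPM in Mid-high sums, against 275, 1193, 1453 and 585 CPM in Low-mid sums (log2 0.41 ± 0.09; edgeR, adjusted p = 0.130). Both genes were higher in Mid-high in 4 of 4 cultures and were lowest in the activated culture in either gate.

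Cdkn1a, the cell cycle inhibitor p21, had 187, 187, 218 and 440.1 CPM in Mid-high sums, against 156, 84.3, 186 and 313 CPM in Low-mid sums (log2 0.50 ± 0.12; edgeR, adjusted p = 0.159). Its widest ratio was in the quiescent culture, at log2 1.14, and there the 3 highest cells gave 60.1% of the Mid-high count. Sgk1, a kinase induced by serum and glucocorticoids, had 60.2, 212, 28.7 and 8.30 CPM in Mid-high sums, against 25.7, 146, 12.7 and 8.30 CPM in Low-mid sums (log2 0.77 ± 0.17; edgeR, adjusted p = 0.141). At 48 h it had 7 counts in each gate, too few to show a difference. Paqr8, a membrane progestin receptor, and Ppp1r3c, which targets a phosphatase to glycogen, had log2 differences of 0.67 ± 0.15 and 0.73 ± 0.17 (edgeR, adjusted p = 0.141 and 0.154), and their ratios by culture ran from 0.20 to 1.19 and from 0.16 to 0.98.

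At the lower side, genes that make cholesterol were among the 10 with the smallest p, and 3 of them are described. Hmgcs1, which forms HMG-CoA, had 629, 237, 182 and 318 CPM in Mid-high sums of the activated, quiescent, 24 h and 48 h cultures, against 671, 311, 207 and 570.0 CPM in Low-mid sums (log2 -0.38 ± 0.11; edgeR, adjusted p = 0.333). It was lower in Mid-high in 4 of 4 cultures and the gap was widest at 48 h, at log2 -0.84. Fdft1, which makes squalene, had 266, 73.8, 50.5 and 165 CPM in Mid-high sums, against 306, 90.7, 71.4 and 273 CPM in Low-mid sums (log2 -0.41 ± 0.11; edgeR, adjusted p = 0.325). Sqle, which oxidises squalene, had 326, 94.5, 71 and 160.1 CPM in Mid-high sums, against 369, 103, 95.5 and 320.0 CPM in Low-mid sums (log2 -0.42 ± 0.12; edgeR, adjusted p = 0.366). Both had their widest gap at 48 h. Without the 48 h exit culture Hmgcs1 had -0.21 and Sqle -0.21. In the quiescent and 24 h cultures the 3 highest cells gave 24.8 to 36.6% of the Sqle counts of a sum, against 45.5 to 97.8% of the Top2a counts. In the activated Mid-high sum these shares lay close together, at 15.9% for Sqle and 18.6% for Top2a.

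Of 26 genes listed for cholesterol synthesis and its control, 24 were tested, 0 were called, 23 had a fitted difference below 0 and 1 above. All 4 cultures were lower in Mid-high for 7 of them, against 6.08% of all genes tested. The median log2 difference was -0.27, and by culture -0.06 in the activated, -0.17 in the quiescent, -0.20 in the 24 h and -0.73 in the 48 h exit culture. Without the 48 h exit culture the median was -0.096, without the activated culture -0.48, and within plates it was -0.22 on the quiescent and 24 h exit plate and -0.30 on the activated and 48 h exit plate. The summed level was 4335, 1212, 958 and 2108 CPM of the total in Mid-high sums, against 4504, 1579, 1188 and 3741 CPM in Low-mid sums, so the difference was largest at 48 h.

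The other 6 genes at the lower side had no common role. Cpd, a carboxypeptidase of the secretory pathway, had the smallest p of them, with 106, 64.8, 45.1 and 96.1 CPM in Mid-high sums, against 134, 98, 96.7 and 123 CPM in Low-mid sums (log2 -0.52 ± 0.13; edgeR, adjusted p = 0.210). Nnat, or neuronatin, had 127, 27.9, 2.73 and 5.93 CPM in Mid-high sums, against 162, 67.8, 4.60 and 22.5 CPM in Low-mid sums (log2 -0.70 ± 0.19; edgeR, adjusted p = 0.289). In the quiescent Low-mid sum 86.6% of the Nnat counts came from 1 cell. Tmem57, Trp53i11, Klf10 and Plekha2 had log2 differences of -0.62, -0.38, -0.54 and -0.47 with adjusted p-values of 0.290 to 0.436 by edgeR.

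**Figure D3:**
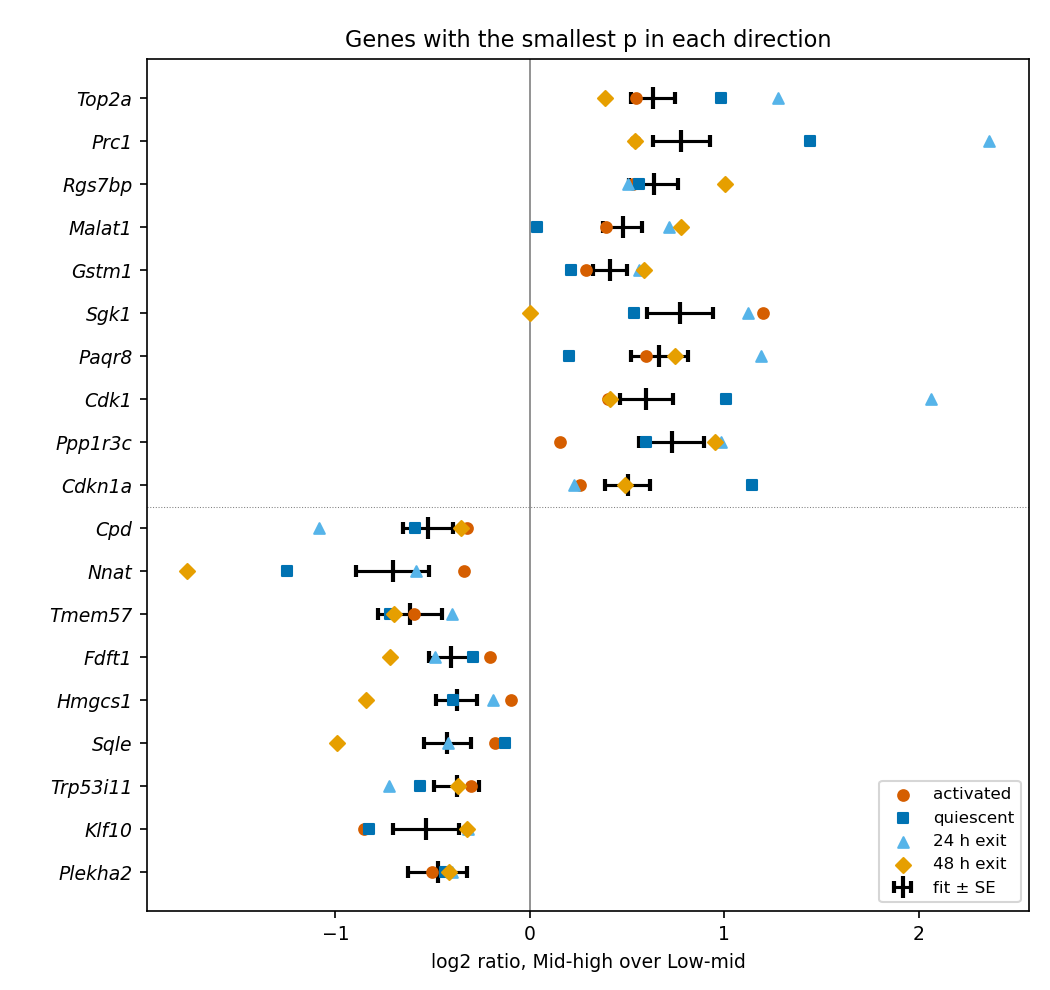
Log2 ratio of Mid-high over Low-mid for 10 genes higher and 9 genes lower in Mid-high, from those with the smallest p in each direction. Coloured symbols are the 4 cultures and black marks the fitted difference with its SE; all 19 genes keep their side of 0 in the 4 cultures, Sgk1 at 48 h lies at 0.00, and no gene was called.

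Mitochondrial transcripts were a larger share of the Mid-high sums in 4 of 4 cultures. Of 18 mitochondrially encoded entries tested, 0 were called and 16 had a fitted difference above 0. In all 4 cultures 13 were higher, against 7.91% of all genes tested. The median log2 difference was 0.20 (0.30 on the quiescent and 24 h exit plate and 0.12 on the activated and 48 h exit plate). Their summed share was 194276, 239151, 281337 and 301763 CPM of the total in Mid-high sums, against 184014, 202262, 244476 and 273549 CPM in Low-mid sums. mtNd5, a subunit of respiratory complex I, had 5172, 8052, 9921 and 9400.1 CPM in Mid-high sums, against 4449, 6094, 7642 and 7462 CPM in Low-mid sums (log2 0.33 ± 0.08; edgeR, adjusted p = 0.210). It was 1 of the 9 genes that limma with voom called, with mtNd4, mt-Rnr1, mt-Rnr2, Top2a, Prc1, Malat1, Gstm1 and Rgs7bp, all higher in Mid-high. The authors' own mitochondrial percent per cell was 5.57, 7.68, 8.46 and 9.82% in Mid-high cells, against 5.10, 6.63, 7.67 and 8.90% in Low-mid cells, a mean difference of 0.81 ± 0.25 percentage points (SD, n = 4 cultures, exact permutation p = 0.125). That percent equalled the share of the 24 entries whose names begin with mt and a dash, the ribosomal and transfer RNAs, in every cell. With the protein-coding entries added, 37 in all, the median over middle-gate cells was 23.2%, against 7.198% by the authors' percent.

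Of 74 nuclear genes of oxidative phosphorylation tested, 0 were called, 40 had a fitted difference above 0 and 34 below, with a median of 0.01. Genes of protein synthesis and turnover were mostly below 0. Ribosomal protein genes, whose reads cannot be separated with certainty from their near-identical copies, had 68 of 72 below 0 and a median of -0.10. Of the 72, 10 were lower in all 4 cultures, against 6.08% of all genes tested. In the quiescent culture their median was 0.11, on the other side of 0, and the fitted median was -0.17 without that culture and -0.042 without the 48 h exit culture. Ribosome biogenesis had 26 of 33 genes below 0 with a median of -0.13, the proteasome 29 of 33 with a median of -0.10, and cytosolic chaperones 22 of 25 with a median of -0.12. None of these genes was called.

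Most markers of the resting state had a fitted difference above 0, and none was called. Of 14 astrocyte genes tested, which quiescent neural stem cells share, 13 had a fitted difference above 0 and the median was 0.22, with 0.01 in the activated, 0.13 in the quiescent, 0.50 in the 24 h and 0.54 in the 48 h culture. The quiescence list had 26 of 33 above 0 with a median of 0.17. In all 4 cultures 4 of the 33 were higher in Mid-high, against 7.91% of all genes tested. Its median was -0.10 in the activated, 0.02 in the quiescent, 0.40 in the 24 h and 0.14 in the 48 h culture, and without the 24 h culture the fitted median was 0.03. The activation list had 19 of 27 below 0 with a median of -0.07, at -0.40 in the 24 h culture and -0.04 to 0.07 in the others. Of 8 BMP response genes tested, 7 were above 0 with a median of 0.18. The authors' G0 score had a higher median in Mid-high in 4 of 4 cultures, by 0.04 ± 0.05 (SD, n = 4 cultures, exact permutation p = 0.125). Gfap, an intermediate filament of astrocytes and quiescent stem cells, did not pass the count filter and was not tested. It had few counts in the activated and 48 h cultures, with 1.61, 112, 30.04 and 3.56 CPM in Mid-high sums, against 1.47, 74.2, 5.76 and 1.19 CPM in Low-mid sums. Id3, a target of BMP signalling, had 353, 872, 309 and 97.3 CPM in Mid-high sums, against 379, 903, 161 and 99.5 CPM in Low-mid sums (log2 0.14 ± 0.12; edgeR, adjusted p = 0.941), and only the 24 h culture stood apart. Egfr, the EGF receptor that marks activated cells, had 46.2, 18.9, 40.96 and 52.2 CPM in Mid-high sums, against 61.7, 12.8, 48.3 and 77.03 CPM in Low-mid sums (log2 -0.30 ± 0.18; edgeR, adjusted p = 0.885), lower in 3 of 4 cultures.

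Lysosomal genes, a group tied to punctate autofluorescence by background knowledge, had values on both sides of 0. Of 65 listed, 58 were tested, 0 were called, and 36 had a fitted difference above 0 and 22 below. The median was 0.06, beside 0.01 over all genes tested. When sums were scaled by totals only it was -0.01, beside -0.056 over all genes tested. Lamp1, a lysosomal membrane protein, had 348, 957, 1283 and 645 CPM in Mid-high sums, against 373, 946, 1047 and 583 CPM in Low-mid sums (log2 0.09 ± 0.09; edgeR, adjusted p = 0.966). Ctsd, the protease cathepsin D, had 63.5, 275, 277 and 148 CPM in Mid-high sums, against 64.6, 269, 216 and 167 CPM in Low-mid sums (log2 0.06 ± 0.11; edgeR, adjusted p = 0.988). Neither gene kept 1 direction over the cultures. The autophagy list had a median of 0.01, flavin and NADPH metabolism 0.05, and antioxidant genes and NRF2 targets 0.06.

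**Figure D4:**
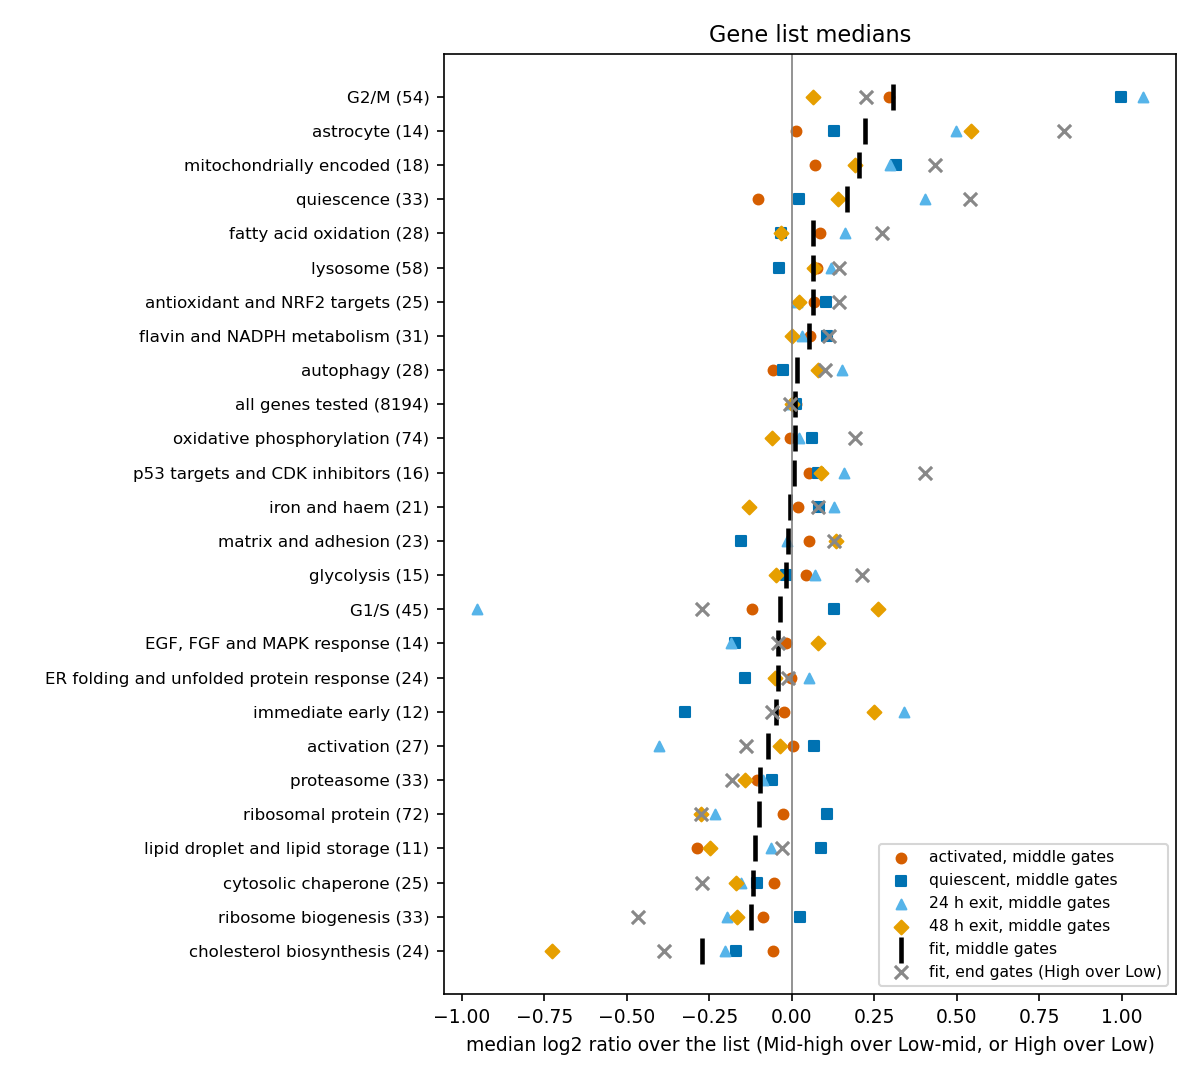
Median log2 ratio of each gene list with at least 10 genes tested (number tested in brackets). Black bars are the fitted Mid-high over Low-mid medians, coloured symbols the same by culture and grey crosses the fitted High over Low medians; G2/M is highest at 0.31 and cholesterol biosynthesis lowest at -0.27 between the middle gates.

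The middle step pointed the same way as the end step for most genes that differed between the end gates. In the same test on the other 318 cells, 165 of 7792 genes rose in High against Low (2.12%) and 58 fell (0.744%). These 223 calls became 19 without the 48 h exit culture, 127 without the activated, 144 without the quiescent and 183 without the 24 h exit culture, and 0 without culture as a block (114 genes at an unadjusted p under 0.05). Of the 165, 154 had a Mid-high over Low-mid difference above 0 (93.3%), against 60.4% of all genes higher in High and tested in both. Of the 58, 46 were below 0 (79.3%), against 55.8% of all genes lower in High. The median differences were 0.24 between the middle gates and 0.80 between the end gates for the 165 genes, and -0.12 and -0.64 for the 58. The median ratio of the middle to the end difference was 0.295 and 0.202. Over all genes tested in both it was 0.200 for those higher in High and 0.125 for those lower. The 223 genes were picked by the end test, which can widen their end differences but not their middle ones. These ratios are therefore no estimate of how the RNA step relates to the autofluorescence step. No cell is in both comparisons, but both use the same cultures and plates, and plate row and sort time run with the gate in both.

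The 10 genes with the smallest p between the end gates were Kpna2, Cdkn1a, Prc1, Cryab, Ndrg4, Slc39a12, Ank3, Ednrb, Grina and Slc4a4, and all 10 had a Mid-high over Low-mid difference above 0. Slc4a4, a sodium bicarbonate cotransporter, had 189, 430.3, 853 and 209 CPM in Mid-high sums, against 149, 407, 719 and 172 CPM in Low-mid sums (log2 0.23 ± 0.09, against 0.88 between the end gates). Ednrb, an endothelin receptor of astrocytes and stem cells, had 81.2, 419, 619.9 and 171 CPM in Mid-high sums, against 79.3, 383, 427 and 139 CPM in Low-mid sums (log2 0.27 ± 0.10, against 0.91). Both were higher in Mid-high in 4 of 4 cultures. Cryab, a small heat shock protein, had a log2 difference of 0.27 ± 0.13 against 1.27 between the end gates, and the zinc transporter Slc39a12, at 0 counts in both middle gates of the activated culture, had 1.00 ± 0.30 against 2.2. Ndrg4, Ank3 and Grina had 0.32, 0.29 and 0.19 between the middle gates and 1.17, 1.06 and 0.96 between the end gates. Ndrg4 was higher in Mid-high in 4 of 4 cultures. In 1 culture each the others were lower in Mid-high, Ank3 at 24 h (-0.11), Grina in the quiescent culture (-0.12) and Cryab in the activated culture (-0.10). Without the 24 h culture the middle-gate difference was 0.14 for Ednrb, 0.087 for Cryab, 0.067 for Grina, 0.26 for Slc39a12 and 0.46 for Ank3, and without the activated culture it was 0.41 for Cryab and 0.18 for Ank3.

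**Figure D5:**
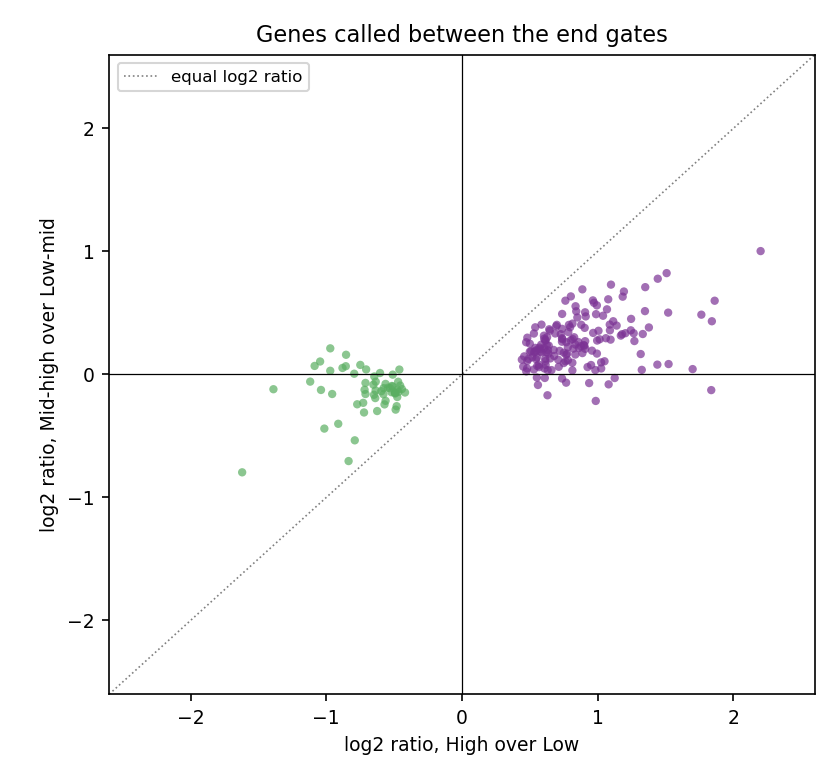
Log2 ratio of Mid-high over Low-mid (vertical) against High over Low (horizontal) for the 165 genes that rose (purple) and the 58 that fell (green) between the end gates. Each point is a gene and the dotted line marks equal ratios; 154 and 46 genes keep their side of 0, and all 223 lie nearer to 0 on the vertical axis. The genes were picked by the end test, which can widen their horizontal values.

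A test of the difference between the 2 steps called 5 of 8702 genes (0.0575%), 1 with a higher middle step (0.0115%) and 4 with a lower one (0.046%). Its null was equal log2 steps, although the middle autofluorescence step was only 0.306 of the end step. A lower middle step alone therefore does not set a gene apart from the smaller difference in brightness. Kpna2, an importin alpha that carries proteins into the nucleus, had 417, 94.5, 68.3 and 239.6 CPM in Mid-high sums, against 275, 40.3, 40.3 and 296 CPM in Low-mid sums. Its log2 difference was 0.43 between the middle gates and 1.84 between the end gates, a step difference of -1.46 ± 0.25 (edgeR, adjusted p = 0.0171). Kpna2 was higher in Mid-high in 3 of 4 cultures and lower at 48 h. The end gates had 432, 87.7, 114 and 299.99 CPM in High sums, against 101, 38.4, 18.2 and 91.7 CPM in Low sums, and in the quiescent culture the middle ratio was about as wide as the end ratio. Ak1, an adenylate kinase, was -0.22 between the middle gates and 0.99 between the end gates (step difference -1.23 ± 0.23; edgeR, adjusted p = 0.0273). Aplp1, a relative of the amyloid precursor protein, was -0.07 and 0.94 (-1.01 ± 0.21; edgeR, adjusted p = 0.0472). Sgk1 was the only one with a higher middle step, 0.77 against -0.41 (1.21 ± 0.23; edgeR, adjusted p = 0.0282). Pf4, a chemokine of platelets, had only 4 to 10 counts in a Mid-high sum and 5 to 27 in a Low-mid sum (-2.90 ± 0.58; edgeR, adjusted p = 0.0397). These 5 calls depended on single cultures: 0 were left without the activated culture, 1 without the quiescent, 10 were called without the 24 h and 0 without the 48 h exit culture.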

How the data were processed

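Single neural stem cells on 2 plates of 384 wells were measured by SORT-seq with CEL-Seq2 library preparation, per the labels' protocols. The submitters' processing notes name BWA 0.7.15, R 4.2.0 and Seurat 4.1.1 and the builds hg19 and mm10, with no role. The authors deposited expected counts, which are identifier counts corrected for molecules sharing 1 of 4096 identifiers, for 15364 genes in a merged table. Per the file headers, the per-cell table gives each cell's total count, mitochondrial percent, ribosomal protein percent, phase scores, phase, condition, gate and channel intensity. How the authors filtered cells, set gates and assigned phases is not given in the sources used here. Wells without a gate were left out, and no doublets were called.

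Cells of 1 culture and gate were added up, the sums rounded to whole counts, and edgeR 4.0.16 run in R 4.3.3 (TMM, filterByExpr, quasi-likelihood, culture as block, Benjamini-Hochberg at 0.05; 3 residual degrees of freedom, common biological coefficient of variation 0.0865). The median prior degrees of freedom were 23.4, so the spread used for a gene rested mostly on that of other genes. Ratios for single cultures used 1 CPM added and carry counting error only. Exact intervals of shares are Clopper-Pearson at 95% and cover counting error only. Properties of cells were compared as gate medians by exact sign-flip permutation over 4 cultures, two-sided. Sums with few counts limit precision, and genes that did not pass the count filter, Gfap among them, were not tested. limma 3.58.1, DESeq2 1.42.0, other scalings, filters, cell subsets and leave-one-out fits were alternatives, and fits of each plate alone were added after seeing the data. The edgeR fit of the middle gates was tested on simulated counts with known folds and the same spread for every gene. The fits of the end gates and of the step difference were not tested in this way. Python 3.11.15, pandas 2.3.3, scipy 1.17.1 and matplotlib 3.10.9 did the rest.

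The culture block pairs the 2 gates of 1 culture, sorted from the same cells. The gates and gene lists were chosen with earlier results of these data known, so lists have counts and medians only. Genes named were the 10 with the smallest p in each direction among those with 1 sign in all 4 cultures and at least 100 counts, without mitochondrial, ribosomal protein or predicted genes, some abundant members of lists, 6 always named (Lamp1, Ctsd, Mki67, Gfap, Id3, Egfr) and the 10 with the smallest p between the end gates. The mitochondrial entries, the genes of the step difference and the shares per cell were chosen after their values were seen. A gene picked this way is left out of the text and was not replaced.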

Additional observations from a re-analysis of the deposited data

Results flagged for a closer look

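Over the 4 cultures, 88 sets of 4 log2 ratios were examined for a culture standing apart and 3 were flagged, where chance flags about 1 in 20. Rgs7bp had 1.00 at 48 h of exit, above its 3 other cultures. Id3 had 0.93 at 24 h, against values near 0 elsewhere. The median of the neuron and neuroblast list, 4 genes tested, was 1.01 at 48 h and below 0 in the other 3 cultures. The summed level of the whole list at 48 h went the other way, at 448 CPM of the total in Mid-high against 509 CPM in Low-mid.

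By the test of the difference between the middle and the end step, Kpna2 (-1.46), Ak1 (-1.23), Sgk1 (1.21), Pf4 (-2.90) and Aplp1 (-1.01) were called, with adjusted p-values of 0.0171 to 0.0472 by edgeR. That test takes equal log2 steps as its null, and the middle gates also differed less in autofluorescence. Kpna2 was also flagged because its middle-gate log2 ratio was 0.60 in the activated culture and -0.31 at 48 h, a difference that was not tested. Their causes were not tested.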

How the results depend on the processing

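The count of 0 genes called between the middle gates was unchanged with DESeq2-type size factors, library totals, DESeq2, a minimum of 10 CPM, no replicate block, mitochondrial and ribosomal entries left out, identifier counts, equal cell numbers and 16 sums sharing the spread. It was 9 with limma and voom, 36 with no filter on low counts, and 9 with cells thinned to equal depth (8 higher in Mid-high, with Top2a, Prc1, Cdk1, Ube2c, Cdkn1a, Kpna2 and Malat1 among them, and Sqle lower). In cells outside S and G2/M it was 4, namely Malat1, mtNd5, mt-Rnr2 and Hmox1, all higher in Mid-high. On the quiescent and 24 h exit plate alone it was 3, and on the activated and 48 h exit plate alone 10. Without 1 culture it was 0 to 8 (1 without the activated, 8 without the quiescent culture). Without the replicate block the middle gates had 0 calls and 19 genes at an unadjusted p under 0.05, and the end gates 0 calls against 223. The end gates had 19 to 183 calls without 1 culture (19 without the 48 h exit culture), and the step difference 0 to 10.

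List medians moved as follows. With library totals only, the medians were -0.0091 for lysosome, -0.059 for oxidative phosphorylation, -0.087 for glycolysis, -0.012 for flavin and NADPH metabolism, -0.0059 for antioxidant genes, -0.16 for the proteasome, -0.18 for chaperones and -0.062 for p53 targets. The median over all genes tested was then -0.056, against 0.01 in the main fit, so part of each of these moves was shared by genes as a whole. With thinned cells they were 0.13 for iron and haem, -0.15 for ER folding and 0.15 for p53 targets. In cells outside S and G2/M they were 0.045 for glycolysis, 0.12 for flavin metabolism, -0.21 for chaperones, 0.16 for p53 targets and -0.013 for the oligodendrocyte lineage. On the quiescent and 24 h exit plate alone they were 0.98 for G2/M, 0.054 for glycolysis, 0.012 for antioxidant genes and 0.21 for p53 targets. On the activated and 48 h exit plate alone they were 0.073 for p53 targets and 0.16 for matrix and adhesion. Without 1 culture at a time, the medians ran from 0.0005 to 0.087 for flavin metabolism (lowest without the activated culture), from -0.0026 to 0.079 for antioxidant genes, from -0.13 to -0.061 for the proteasome, from 0.03 to 0.24 for quiescence (lowest without the 24 h exit culture), from -0.17 to -0.042 for ribosomal proteins, from 0.22 to 0.52 for G2/M (highest without the 48 h exit culture), from -0.48 to -0.096 for cholesterol synthesis and from 0.011 to 0.16 for p53 targets.

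Among single genes, Nnat was -1.37 without the activated culture, Kpna2 0.28 without the quiescent, Paqr8 0.35 without the 24 h exit, and Kpna2 0.77 and Ube2c 1.04 without the 48 h exit culture. Some directions turned. Ctsd was -0.015 with library totals and -0.12 on the activated and 48 h exit plate, Id3 -0.093 on that plate, Egfr 0.053 on the other plate, Aplp1 0.0012 with thinned cells, and Cdk1 and Mki67, at 0.60 and 0.25 over all cells, -0.17 and -0.51 in cells outside S and G2/M, each with an adjusted p of at least 0.993 by edgeR. As means over cells, the spike-in count was -0.052 (log2) and the S score -0.0016. Without 1 culture at a time, Ctsd ran from -0.057 to 0.13 and Id3 from -0.077 to 0.26 (both lowest without the 24 h exit culture), the spike-in count from -0.028 to 0.048, the S score from -0.017 to 0.051 and the G2M score from -0.0004 to 0.046. Cells outside S and G2/M held few of the Cdk1 and Mki67 counts in the activated and 48 h cultures. The causes were not tested.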
